A study of Mus musculus with 11 samples.

Results

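Transcript levels of 8 epithelial genes were followed in isolated mouse hepatocytes: *Wfdc2*, *Sox9*, *Ddr1*, *St14*, *Spp1*, *Afp*, *Krt8* and *Krt18*, out of 54232 genes in the count files. The 8 were chosen by name as genes of bile duct or fetal-type epithelium, with the genotype differences of these same libraries already known. Their genotype differences on each diet are therefore given below as a description, without a p-value, and calls among the 8 are counted without reading anything from them. Adult male C57BL/6 mice carried either floxed *Xbp1* alleles alone (*Xbp1* fl/fl) or the same alleles together with a Cre transgene driven by the albumin promoter, which deletes *Xbp1* in hepatocytes (*Xbp1* LKO). Both genotypes were kept on chow or were given a diet of high fat and sugar (HFS), with feeding of at most 6 weeks, and hepatocytes were purified over Percoll before mRNA sequencing. There were 11 libraries: 3 chow-fed *Xbp1* fl/fl, 2 chow-fed *Xbp1* LKO, 3 HFS-fed *Xbp1* fl/fl and 3 HFS-fed *Xbp1* LKO. Each chow library held the cells of 1 mouse and each HFS library those of 2 pooled mice, so diet and pooling cannot be told apart.

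XBP1 is a transcription factor of the unfolded protein response, and hepatocytes use it to maintain the secretory capacity that a liver cell needs. Hepatocytes and bile duct cells (cholangiocytes) descend from a common fetal progenitor, the hepatoblast. Adult hepatocytes keep keratins 8 and 18 as their only abundant keratins, whereas cholangiocytes add keratins 7 and 19, the transcription factor SOX9 and secreted osteopontin. α-fetoprotein is made by fetal hepatoblasts and silenced after birth, and several of these epithelial genes reappear in adult liver during injury and regeneration.

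Total counts ran from 19191032 to 23888401 per library, and levels are given as CPM after TMM scaling, the count expected of a library of 1000000 scaled counts, in which 1 CPM stood for 17.3 to 26.9 counts. *Xbp1* itself was at 95.7 to 135 CPM in the 5 *Xbp1* LKO libraries and at 194 to 301 CPM in the 6 *Xbp1* fl/fl libraries, without overlap. Gene-level counts hold every exon of *Xbp1* together, the deleted one included. *Alb* took 1.67 to 5.40% of all counts in *Xbp1* LKO libraries and 5.88 to 10.9% in *Xbp1* fl/fl libraries, so albumin, the defining hepatocyte product, was abundant throughout. The second chow-fed *Xbp1* LKO library had the lowest *Alb* share of all. Among *Xbp1* fl/fl libraries, chow replicate 1 had the highest summed level among the 5 chow libraries of 15 macrophage markers (102 CPM, against at most 40.4 in the other 4), of 15 endothelial markers and of 15 stellate cell markers. The genotypes are called fl/fl and LKO from here on. In bulk RNA, fewer cells of a type and less RNA per cell cannot be told apart.

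*Wfdc2* was low in hepatocytes that lacked *Xbp1*. It encodes HE4, a secreted protein with whey acidic protein domains of the kind found in protease inhibitors, and lies on chromosome 2 at 164562413-164568510 (GRCm38, plus strand). Chow-fed fl/fl libraries gave 3.03, 7.69 and 4.18 CPM, and chow-fed LKO libraries gave 0.981 and 0.350 CPM. On HFS diet the fl/fl libraries gave 3.62, 6.01 and 7.35 CPM, and the LKO libraries gave 0.896, 1.41 and 1.65 CPM. Every LKO library lay below every fl/fl library on either diet, a pattern shared by 4.34% of the 13303 genes tested, and 7.53% were separated by genotype across all libraries in either direction. The log2 difference between genotypes was -2.88 (SE 0.55) on chow and -2.09 (SE 0.43) on HFS diet. Without the second chow-fed LKO library, which held only 8 *Wfdc2* counts, the chow difference was -2.33, and without the first it was -3.80.

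*Sox9*, the transcription factor that marks cholangiocytes and the hepatocytes next to the portal vein, was highest in chow-fed fl/fl cells. Those libraries stood at 6.23, 4.86 and 4.38 CPM, against 1.58 and 1.97 CPM in chow-fed LKO cells. After HFS feeding, fl/fl libraries had 1.95, 3.16 and 3.14 CPM and LKO libraries had 2.00, 1.30 and 1.495 CPM. The genotypes were fully separated on chow and overlapped on HFS diet, where the lowest fl/fl library lay between LKO values. The genotype difference was -1.54 (SE 0.31) log2 units on chow and -0.78 (SE 0.27) on HFS diet. Markers of other liver cells differed the same way on chow. All 15 endothelial markers had a negative genotype difference there (median -1.31 log2 units, sums of 70.7 to 178 CPM in fl/fl and 42.6 to 54.9 CPM in LKO libraries), as did 11 of 12 tested stellate cell markers (median -1.24, sums of 19.9 to 66.5 CPM and 14.4 to 17.3 CPM). No marker of these lists was called by edgeR, while 13 endothelial and 4 stellate cell markers had an unadjusted p under 0.05 and DESeq2 called 10 and 2 lower. On HFS diet all 15 endothelial markers were negative again, with a median of -0.39. The stellate cell markers went the other way there, with 9 of 12 positive, 3 negative and a median of 0.37. Without the first chow-fed fl/fl library, which was highest in these markers on chow, the chow difference was -3.14 for *Wfdc2* and -1.38 for *Sox9*. The part of such cells in the *Wfdc2* and *Sox9* values was not tested. *Sox9* was also lower with HFS diet in fl/fl cells, again without overlap, as described with the diet comparisons below.

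**Figure D1:**
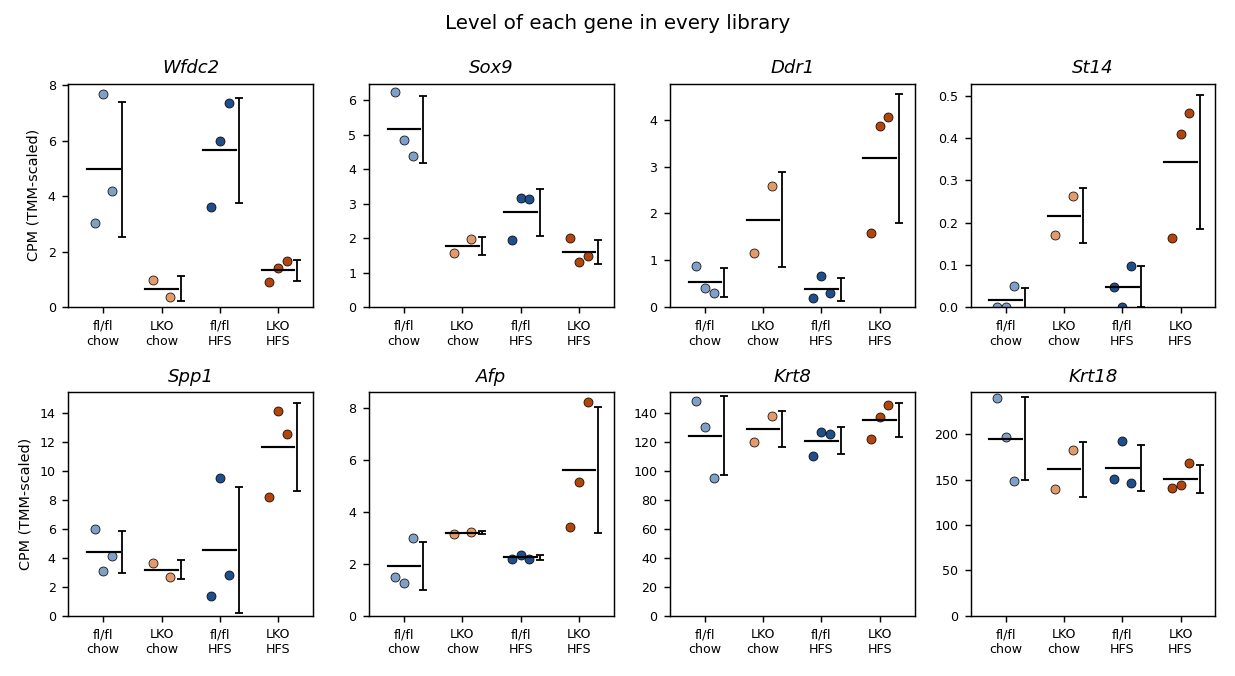
TMM-scaled CPM of the 8 genes in each of the 11 libraries (y axis from 0, 1 scale per gene), by genotype and diet; points are libraries, horizontal lines group means and vertical bars 1 SD. *Wfdc2* is low in all 5 LKO libraries (0.350 to 1.65 CPM) and *Ddr1*, *St14* and *Afp* are higher in all 5 than in any fl/fl library, while *Krt8* and *Krt18* overlap between all groups.

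*Ddr1* differed in the opposite direction to *Wfdc2* and *Sox9*. It encodes discoidin domain receptor 1, a tyrosine kinase that is activated by collagen and is typical of epithelial cells, and it lies on chromosome 17 at 35681567-35704621 (minus strand). It was at 0.883, 0.405 and 0.299 CPM in chow-fed fl/fl libraries, and at 1.15 and 2.58 CPM under chow in LKO libraries. The HFS-fed fl/fl libraries gave 0.191, 0.662 and 0.294 CPM and the HFS-fed LKO libraries 1.59, 3.87 and 4.06 CPM. All 5 LKO libraries exceeded all 6 fl/fl libraries, as 3.19% of all tested genes did. The difference was 1.82 (SE 0.61) log2 units on chow and 3.05 (SE 0.58) on HFS diet. On chow it was 1.12 without the second LKO library, and 2.40 without the first fl/fl library.

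*St14*, which encodes the membrane serine protease matriptase of epithelial surfaces, was close to the limit of detection. Chow-fed fl/fl libraries held 0, 0 and 1 counts, and chow-fed LKO libraries 4 and 6 counts. HFS-fed fl/fl libraries held 1, 0 and 2 counts, and HFS-fed LKO libraries 4, 11 and 12 counts. Each LKO library thus had more *St14* counts than any fl/fl library, but the gene passed the filter on low counts only through the HFS-fed LKO group, where it was highest. Relative to summed library sizes, the level was 11.98-fold higher in LKO cells on chow (95% exact interval 1.71 to 520) and 7.09-fold higher on HFS diet (2.18 to 36.5), intervals that cover counting error only.

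*Afp*, the fetal serum protein gene, was higher in every LKO library than in any fl/fl library, though the closest values lay near each other. Chow-fed libraries gave 1.49, 1.27 and 2.99 CPM in fl/fl and 3.16 and 3.23 CPM in LKO cells. HFS-fed libraries gave 2.19, 2.34 and 2.20 CPM in fl/fl and 3.42, 5.17 and 8.24 CPM in LKO cells. The spread in the HFS-fed LKO group (SD 2.44 CPM, n = 3) was larger than that in the HFS-fed fl/fl group (SD 0.083 CPM, n = 3). The log2 genotype difference was 0.73 (SE 0.40) on chow and 1.32 (SE 0.35) on HFS diet. An antisense gene, *Gm43449*, overlaps *Afp* and held 7 to 32 counts per library, with 32, 10 and 20 counts in the HFS-fed LKO libraries. Because the strand setting of the counting is not given in the sources used here, its part in the *Afp* values was not tested.

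*Afp* lies 14134 bases downstream of *Alb* on chromosome 5, on the same strand, and the 2 genes encode the related main serum proteins of fetal and adult life. Per 100000 *Alb* counts, chow-fed fl/fl libraries held 1.72, 1.12 and 2.50 *Afp* counts and chow-fed LKO libraries 9.22 and 23.1. With HFS diet the ratio was 3.07, 3.64 and 2.69 in fl/fl cells and 6.65, 17.5 and 21.2 in LKO cells. The genotypes did not overlap on either diet, which followed from a lower *Alb* and a higher *Afp* level in every LKO library. Even in the library with the highest ratio, *Afp* remained a trace transcript beside *Alb*.

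*Spp1* encodes osteopontin, a secreted matrix glycoprotein made by cholangiocytes and also by macrophages, and its genotype difference had opposite signs on the 2 diets. On chow the libraries gave 5.96, 3.12 and 4.13 CPM in fl/fl and 3.63 and 2.71 CPM in LKO cells. On HFS diet they gave 1.38, 9.52 and 2.79 CPM in fl/fl and 8.23, 14.1 and 12.5 CPM in LKO cells. The second HFS-fed fl/fl library was above 1 LKO library and made the groups overlap. The genotype difference was -0.48 (SE 0.62) log2 units on chow and 1.36 (SE 0.53) on HFS diet, or 2.48 without that fl/fl library. The summed level of 15 macrophage markers was 50.1 CPM in that library, between the 44.7 and 63.7 CPM of the other 2 of its group, and 64.6 to 114 CPM in the HFS-fed LKO libraries. All 15 macrophage markers had a positive genotype difference on HFS diet, with a median of 0.64 log2 units, and none was at 0. On chow all 15 had a negative difference, with a median of -0.55, so that their signs followed those of *Spp1* on both diets. edgeR and DESeq2 called none of the 15 on either diet, and on HFS diet 2 had an unadjusted p under 0.05. Their part in the *Spp1* values was not tested.

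The RefSeq promoter table (GRCm38.p6) held 6 of the 8 genes, not *Sox9* or *St14*. The upstream sequences of *Ddr1*, *Spp1* and *Afp* are shown because these 3 had the largest positive differences in HFS-fed LKO cells among those 6. Each stretch runs 5′ to 3′ in the direction of the gene from 250 to 31 bases before the RefSeq start: chr17:35704630-35704849 (minus strand) for *Ddr1*, chr5:104434861-104435080 (plus) for *Spp1* and chr5:90490464-90490683 (plus) for *Afp*. Capitals mark CGTGG, the reverse complement of CCACG, in *Ddr1* (first base at -129 from the start), and the stretches of *Spp1* and *Afp*, without capitals, held none of the motifs searched.
Ddr1: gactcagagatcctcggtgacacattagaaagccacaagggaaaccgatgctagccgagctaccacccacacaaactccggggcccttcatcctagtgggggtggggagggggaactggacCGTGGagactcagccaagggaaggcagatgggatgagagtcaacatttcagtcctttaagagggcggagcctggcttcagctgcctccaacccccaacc
Spp1: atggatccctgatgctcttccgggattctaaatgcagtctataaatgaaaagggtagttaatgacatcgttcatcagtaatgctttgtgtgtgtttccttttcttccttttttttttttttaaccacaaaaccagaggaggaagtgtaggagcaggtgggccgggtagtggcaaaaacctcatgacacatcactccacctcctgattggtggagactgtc
Afp: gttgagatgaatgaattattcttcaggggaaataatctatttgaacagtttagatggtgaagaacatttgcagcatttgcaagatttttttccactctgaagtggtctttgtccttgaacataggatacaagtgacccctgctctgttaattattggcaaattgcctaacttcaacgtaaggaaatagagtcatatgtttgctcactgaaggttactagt

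In a search of both strands, TGACGTG, the sequence bound by XBP1 and ATF6, was found in none of the 6 stretches and in 1.34% of all 32851 promoters of the table. CCACG, the end of the ER stress response element, was found in *Ddr1* and *Krt18* and in 25.4% of all promoters. It shares the letters CACG with the reverse of TGACGTG, so matches of the 2 can overlap. ACAAT, the SOX motif, was found in *Wfdc2* and in 25.6% of promoters. The RefSeq start of *Wfdc2* lay 302 bases from the gene start given above, so its stretch (chr2:164562465-164562684) was inside that gene interval. For *Krt8* the RefSeq start lay 140 bases from the GENCODE start. Motif matches describe letters and not bound sites.

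The paired keratins *Krt8* and *Krt18*, whose proteins assemble together into the intermediate filaments of the hepatocyte, were the abundant members and differed least. *Krt8* was at 148, 130.2 and 94.8 CPM in chow-fed fl/fl and at 120 and 137 CPM in chow-fed LKO libraries. On HFS diet it was at 110.4, 127 and 125 CPM in fl/fl and at 122, 137 and 146 CPM in LKO libraries. *Krt18* stood at 239, 197 and 148 CPM against 140 and 182 CPM on chow, and at 150.1, 192 and 147 CPM against 140.2, 143 and 168 CPM on HFS diet. The genotypes overlapped for both keratins on both diets. For *Krt8* the genotype difference was 0.05 (95% interval -0.33 to 0.43) on chow and 0.16 (-0.18 to 0.50) on HFS diet. Reads of the processed pseudogene *Krt8-ps*, 2 to 8 counts per library, could be split with *Krt8*. For *Krt18* it was -0.27 (-0.73 to 0.18) on chow and -0.11 (-0.52 to 0.29) on HFS diet. Scaling by library totals alone raised the median genotype difference of all genes by 0.33 log2 units on chow and 0.26 on HFS diet and turned *Krt18* to 0.06 and 0.15, so no direction is given for either keratin.

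The ratio of 2 genes within a library does not depend on the scaling. *Krt8* counts were 0.618, 0.660 and 0.640 times the *Krt18* counts in chow-fed fl/fl libraries, against 0.857 and 0.754 times in chow-fed LKO libraries. With HFS diet the ratio was 0.735, 0.661 and 0.853 in fl/fl and 0.871, 0.957 and 0.866 in LKO libraries. Within each diet all LKO libraries had the higher ratio, although the third HFS-fed fl/fl library nearly reached the LKO values. The 2 genes are divergent neighbours on chromosome 15, 23697 bases apart. Their log2 levels correlated across the 11 libraries with r = 0.54, and with r = 0.88 after removal of the group means, values that share the depth and scaling of each library.

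The ratio of *Ddr1* to *Wfdc2* had to separate the genotypes, since *Ddr1* was higher and *Wfdc2* lower in every LKO library. It is given for its size only. There were 0.291, 0.0526 and 0.0714 *Ddr1* counts per *Wfdc2* count in chow-fed fl/fl libraries, against 1.17 and 7.38 in chow-fed LKO libraries. The HFS-fed libraries had 0.0526, 0.110 and 0.0400 in fl/fl and 1.77, 2.74 and 2.46 in LKO cells. *Wfdc2* thus outnumbered *Ddr1* in every fl/fl library, and *Ddr1* outnumbered *Wfdc2* in every LKO library.

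**Figure D2:**
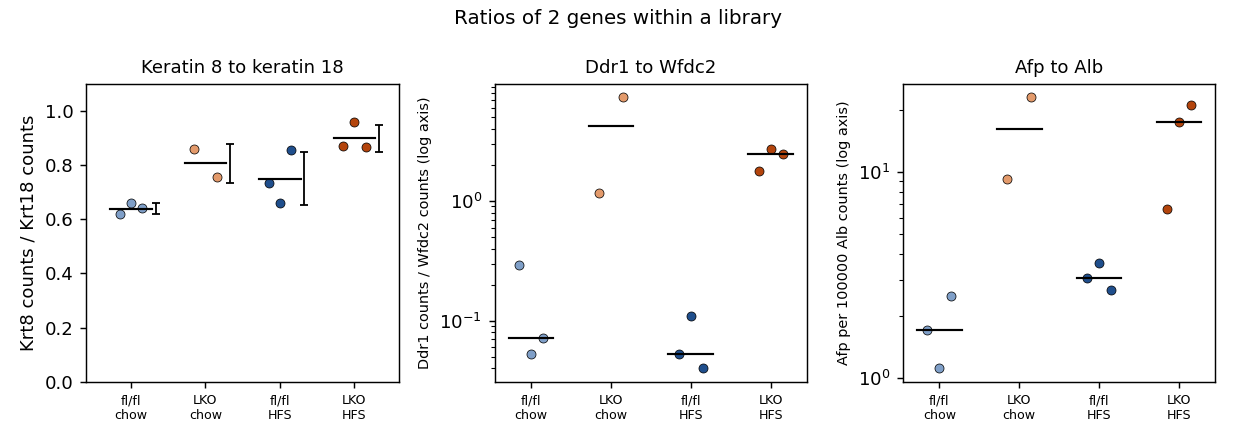
Counts of 1 gene relative to another in each library, by genotype and diet: *Krt8* to *Krt18* (linear axis from 0, with mean and SD), *Ddr1* to *Wfdc2* and *Afp* per 100000 *Alb* counts (log axes, horizontal lines are medians). *Ddr1* to *Wfdc2* lies between 0.0400 and 0.291 in the fl/fl libraries and between 1.17 and 7.38 in the LKO libraries.

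Set against the whole transcriptome, 2 of the 8 genes passed an adjusted p of 0.05 in edgeR's quasi-likelihood test on chow (*Wfdc2* and *Sox9*, both lower in LKO cells), where 4.75% of all 13303 tested genes did and 3.02% were called lower. On HFS diet 2 passed (*Wfdc2* lower and *Ddr1* higher), where 4.08% of all genes did, 2.16% lower and 1.92% higher. DESeq2 called the same genes and, on HFS diet, also *Afp*. Groups were without overlap for 5 of the 8 on chow and 4 of the 8 on HFS diet, beside 31.3% and 26.1% of all tested genes. Since these contrasts were used in choosing the 8, nothing is read from those counts. The median difference of the 8 was -0.11 log2 units on chow and 0.74 on HFS diet, next to 0.00 and 0.01 over all tested genes. Members with opposite directions enter these medians.

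Compared per kilobase of exon, the order of the 8 genes was headed by the keratins in all 4 groups. In chow-fed fl/fl cells *Krt18* had 136 and *Krt8* 63.5 CPM per kb, followed by *Wfdc2* (4.36), *Spp1* (2.67), *Sox9* (1.25), *Afp* (0.569), *Ddr1* (0.111) and *St14* (0.0022). Only the neighbours *Wfdc2* and *Spp1* overlapped in that group. In HFS-fed LKO cells *Krt18* (105) and *Krt8* (69.0) were followed by *Spp1* (7.06), *Afp* (1.67), *Wfdc2* (1.16), *Ddr1* (0.665), *Sox9* (0.386) and *St14* (0.045). There *Afp*, *Wfdc2* and *Ddr1* each overlapped the next gene in the order. *Wfdc2* held the third place in both fl/fl groups and the fifth in both LKO groups. Averaged over the 11 libraries, *Krt18* lay at the 97.0th and *St14* at the 0.11th percentile of the tested genes on this scale.

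**Figure D3:**
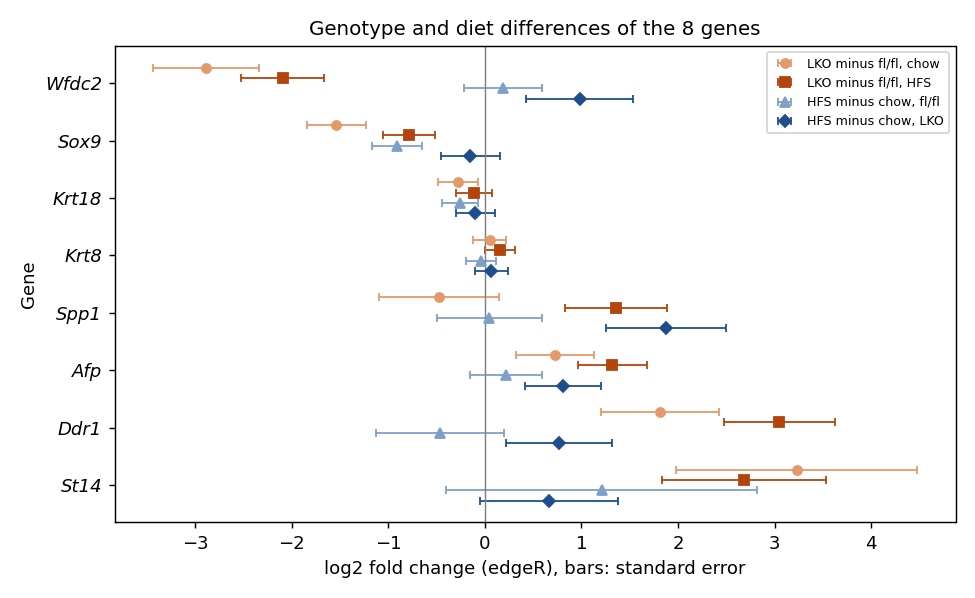
Log2 fold change of each gene (x axis, points) with its standard error (bars) for the genotype difference on each diet and for the diet difference in each genotype, from edgeR's fit of all 4 groups. The genotype differences run from -2.88 (*Wfdc2* on chow) to 3.05 (*Ddr1* on HFS diet) among genes with more than trace counts, and *St14*, with 0 to 12 counts, has the widest error bars.

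The diet comparisons were not the basis on which the genes were chosen, though they share libraries with the genotype comparisons. In fl/fl cells, none of the 8 genes was called by edgeR's quasi-likelihood test after Benjamini-Hochberg adjustment over all genes, DESeq2 called none of them, and 1 had an unadjusted p under 0.05. Over all genes, edgeR called 0.428%, and 8.95% had an unadjusted p under 0.05. That 1 gene was *Sox9*, whose HFS-fed fl/fl libraries all lay below the chow-fed ones. Its difference was -0.91 (SE 0.26, 95% interval -1.48 to -0.34, edgeR Benjamini-Hochberg adjusted p = 0.267). Groups were without overlap for 13.7% of all genes in this comparison, and lower with HFS diet for 7.34%. For the other 7 genes the edgeR adjusted p was between 0.775 and 0.995.

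In LKO cells, edgeR's quasi-likelihood test again called none of the 8 for diet, DESeq2 called none, and 1 had an unadjusted p under 0.05. Of all genes, 0.0601% were called by edgeR in this comparison and 12.7% had an unadjusted p under 0.05. The nominal p was that of *Spp1*, which all 3 HFS-fed libraries had at 8.23 CPM or more and both chow-fed libraries at 3.63 CPM or less. The difference was 1.88 log2 units (SE 0.62, 95% interval 0.51 to 3.24, edgeR Benjamini-Hochberg adjusted p = 0.273). *Afp* was the other gene without overlap, with a difference of 0.81 (SE 0.39, edgeR Benjamini-Hochberg adjusted p = 0.421). Of all genes, 31.1% were without overlap here, 16.7% being higher on HFS diet. Beside the *Spp1* values, all 15 macrophage markers had a positive diet difference in LKO cells, with a median of 1.31 log2 units. Of these 7 had an unadjusted p under 0.05 and none was called by edgeR or DESeq2, and their sum was 27.1 and 40.4 CPM on chow and 64.6 to 114 CPM on HFS diet. Endothelial markers moved further, with all 15 positive, a median of 1.58 log2 units and sums of 42.6 and 54.9 CPM on chow and 112 to 195 CPM on HFS diet. None of the 15 was called by edgeR, all 15 had an unadjusted p under 0.05 and DESeq2 called 14 higher. All 12 tested stellate cell markers were positive as well, with a median of 2.23, and the sum of all 15 was 14.4 and 17.3 CPM on chow and 39.8 to 84.0 CPM on HFS diet. For these, edgeR called none, 9 had an unadjusted p under 0.05 and DESeq2 called 5 higher. Their part in the result was not tested.

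Whether the genotype difference depended on diet was tested as an interaction. None of the 8 genes and none of all 13303 passed with edgeR (lowest Benjamini-Hochberg adjusted p among the 8 was 0.799), while 816 genes (6.13%) had an unadjusted p under 0.05 and DESeq2 called 29, none of the 8 among them. The gene nearest to a call was *Spp1*, with a genotype difference 1.83 log2 units greater on HFS diet than on chow (SE 0.82, 95% interval 0.04 to 3.62), the 1 of the 8 with an unadjusted p under 0.05. All 15 macrophage markers had a positive interaction too, with a median of 1.28 log2 units, none of them called by edgeR or DESeq2 and 2 with an unadjusted p under 0.05. The first chow-fed fl/fl library, which was highest in these markers on chow, enters that median. The part of the macrophage markers in the *Spp1* value was not tested. For *Sox9* the interaction was 0.76 (-0.13 to 1.64), for *Ddr1* 1.23 (-0.65 to 3.12), for *Wfdc2* 0.79 (-0.71 to 2.30) and for *Afp* 0.59 (-0.58 to 1.77). Each of these 4 intervals is wide enough to hold both no difference and a difference of more than 1 log2 unit.

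Other markers of bile duct epithelium were at trace levels. The counts of 5 defining duct markers, the keratins *Krt7* and *Krt19*, the adhesion molecule *Epcam*, the chloride channel *Cftr* and the surface protein *Tspan8*, summed to 3, 1 and 2 in chow-fed fl/fl libraries and to 11 and 3 in chow-fed LKO libraries. On HFS diet they summed to 1, 1 and 3 in fl/fl and to 16, 34 and 13 in LKO libraries. The sum was thus higher in all 3 HFS-fed LKO libraries, at 0.805 ± 0.405 CPM (SD, n = 3) against 0.0818 ± 0.0564 CPM (SD, n = 3), with p = 0.1 by an exact two-sided permutation test, which can go no lower with 3 libraries in each group. *Epcam* contributed 24 counts over the LKO libraries on HFS diet and 3 over the fl/fl libraries, a ratio of 6.30 (95% exact interval 1.91 to 32.7, counting error only). The summed duct levels moved with *Ddr1*, *St14*, *Spp1* and *Afp* on HFS diet and against *Wfdc2* and *Sox9*. Their part in those values was not tested.

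**Figure D4:**
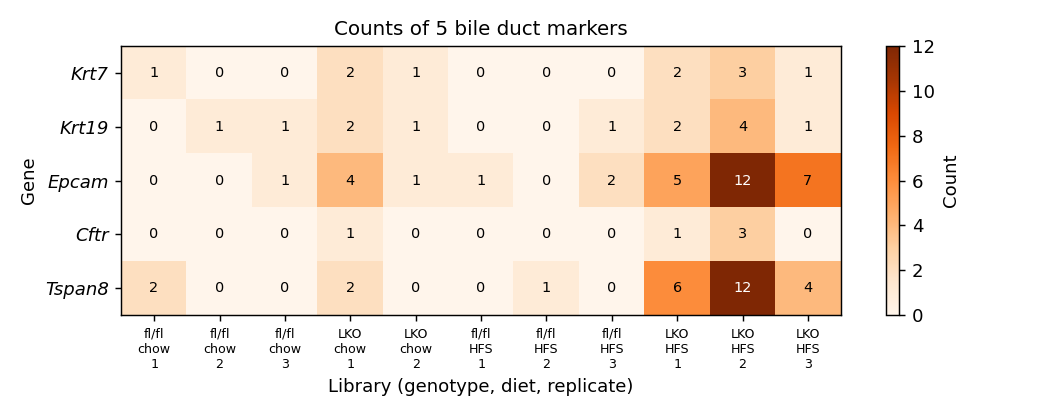
Counts of 5 bile duct markers (rows) in the 11 libraries (columns, by genotype, diet and replicate), with the number in each cell and a colour scale from 0. No marker exceeds 12 counts in any library, and the 3 HFS-fed LKO libraries hold 16, 34 and 13 counts in all.

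Beyond these, 5 lists of related genes placed the 8 in context: 34 cholangiocyte genes, 30 fetal liver genes, 30 genes of Notch, YAP and ductal fate, 26 genes of keratins, cytoskeleton and junctions, and 32 partner genes in protease, matrix and inhibitor pathways. Of 105 tested genes in all, edgeR's quasi-likelihood test called 5 higher and 5 lower in LKO cells on chow, and 7 higher and 4 lower on HFS diet, beside 4.75% and 4.08% of all tested genes called. These lists too were drawn up with earlier results of these data known. Genes were named from them mostly by the lowest unadjusted p of the genotype comparisons. Their genotype calls and p-values below are therefore a description, and nothing is read from the numbers of calls. For diet and the interaction edgeR's quasi-likelihood test called none in any of the 5 lists. In the diet comparisons, 10 of the 105 in fl/fl and 26 in LKO cells had an unadjusted p under 0.05, beside 8.95% and 12.7% of all genes, and DESeq2 called 2 lower and 5 higher, respectively. The interaction had 10 at an unadjusted p under 0.05, beside 6.13% of all genes, and no DESeq2 call. The median genotype difference on chow and on HFS diet was -0.16 and -0.03 log2 units in the cholangiocyte list, 0.07 and 0.03 in the fetal liver list, 0.33 and 0.18 in the Notch, YAP and ductal fate list, and -0.10 and 0.02 in the keratin and junction list.

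The protease and matrix list held calls in the lower direction on both diets. *Tmprss6*, a liver serine protease of the same membrane family as *St14*, was at 660, 787 and 614 CPM in chow-fed fl/fl and at 294 and 225 CPM in chow-fed LKO libraries. On HFS diet it was at 712, 680 and 745 CPM against 308, 233 and 358 CPM. It fell by 1.41 log2 units (SE 0.20) on chow and by 1.25 (SE 0.18) on HFS diet, with edgeR Benjamini-Hochberg adjusted p of 0.00449 and 0.00367, and the genotypes did not overlap. *Hgfac*, the protease that activates hepatocyte growth factor, fell by 1.41 (SE 0.26) on chow and 1.35 (SE 0.22) on HFS diet, with edgeR adjusted p of 0.0115 and 0.00783. Of the 25 genes tested in this list, edgeR called 3 lower on chow and 4 on HFS diet, and none higher. Of all tested genes, 3.02% and 2.16% were called lower. DESeq2 called 4 lower and 0 higher on chow, and 5 lower and 1 higher on HFS diet. The list's median difference was -0.33 on chow and -0.05 on HFS diet. The remaining edgeR calls were *Wfdc21*, a family relative of *Wfdc2* that was named after its values were seen, on both diets and *Mst1*, which encodes macrophage stimulating protein, on HFS diet.

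Junction genes moved in both directions. *Cldn2*, a claudin of the tight junction, rose by 0.86 log2 units (SE 0.16) on chow and 0.82 (SE 0.14) on HFS diet in LKO cells, with edgeR Benjamini-Hochberg adjusted p of 0.0108 and 0.0094. *Cdh1*, which encodes E-cadherin, fell by 2.35 (SE 0.41) on chow, from 25.9, 32.6 and 22.8 CPM to 5.76 and 4.85 CPM, with an edgeR adjusted p of 0.00979. On HFS diet its difference was -1.17 (SE 0.33, edgeR adjusted p = 0.0773). *Dsp*, the desmosome protein that anchors keratin filaments, rose by 0.76 (SE 0.16) on HFS diet, with an edgeR adjusted p of 0.0261. In all, edgeR called 1 of 22 tested genes of this list higher and 1 lower on chow, beside 1.73% and 3.02% of all tested genes. On HFS diet it called 2 higher and 0 lower, beside 1.92% and 2.16%. An unadjusted p under 0.05 was reached by 6 on chow and 5 on HFS diet. DESeq2 called 2 higher and 2 lower on chow, and 2 higher and 1 lower on HFS diet.

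Among the 24 tested genes of Notch, YAP and ductal fate, *Tead1*, the DNA-binding partner of YAP, rose by 1.01 log2 units (SE 0.22) on chow and 0.90 (SE 0.20) on HFS diet in LKO cells, with edgeR Benjamini-Hochberg adjusted p of 0.023 and 0.0284. *Jag1*, the Notch ligand, rose by 1.12 (SE 0.27) on chow, with an edgeR adjusted p of 0.0377. Its HFS difference was 0.75 (SE 0.24, edgeR adjusted p = 0.112). The other 22 tested genes of the list were not called on either diet. Among them *Amotl1*, also named by its unadjusted p, was at 0.867 to 2.32 CPM in chow-fed fl/fl libraries. Chow-fed LKO libraries had 0.640 and 0.350 CPM of it. On HFS diet it was at 1.32 to 2.69 CPM in fl/fl and 1.60 to 2.24 CPM in LKO libraries.

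Of 18 tested fetal liver genes, 2 were called higher on chow and 3 on HFS diet, where 1.73% and 1.92% of all genes were. *Meg3*, an imprinted long RNA, stood at 0.772, 0.520 and 0.797 CPM in chow-fed fl/fl libraries, and at 60.5 and 49.4 CPM under chow in LKO libraries. On HFS diet it stood at 0.524, 0.458 and 0.196 CPM against 13.4, 2.79 and 21.9 CPM. It rose by 6.28 log2 units (SE 0.69) and 4.99 (SE 0.72), with edgeR Benjamini-Hochberg adjusted p of 0.00155 and 0.00367. *Hk2*, the hexokinase of fetal and other proliferating tissue, had 3 counts in all chow-fed fl/fl and 79 in all chow-fed LKO libraries, a 31.6-fold ratio of levels (95% exact interval 10.4 to 156, counting error only). It passed the filter on low counts only through LKO libraries, where it was highest. *H19*, another imprinted long RNA that was also named after its values were seen, was called higher on HFS diet, with 82 counts in LKO and 7 in fl/fl libraries. It passed the filter on low counts only through the HFS-fed LKO group, where it was highest, and had 1 count in each genotype on chow. Its interaction with diet was not called (edgeR, Benjamini-Hochberg adjusted p = 0.903). *Pkm*, named by its unadjusted p, was not called by edgeR for genotype on either diet. It was at 0.694 to 1.545 CPM in fl/fl and 1.35 and 2.005 CPM in LKO libraries on chow. On HFS diet *Pkm* was at 0.916 to 1.52 CPM against 1.495 to 2.53 CPM.

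In the cholangiocyte list, 16 of 34 genes could be tested. *Tstd1* was called lower on chow, with a fall of 2.24 log2 units (SE 0.40, edgeR Benjamini-Hochberg adjusted p = 0.0107). *Anxa13*, chosen for mention after its values were seen, had 10, 10 and 45 counts in HFS-fed LKO and 0 in each HFS-fed fl/fl library, which is at least 17.1-fold higher against 3 counts over the group. On chow *Anxa13* had 24 counts in LKO and 5 in fl/fl libraries. It passed the filter on low counts only through LKO libraries, where it was highest. Its edgeR Benjamini-Hochberg adjusted p on HFS diet, 0.0332, is thus only a description.

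**Figure D5:**
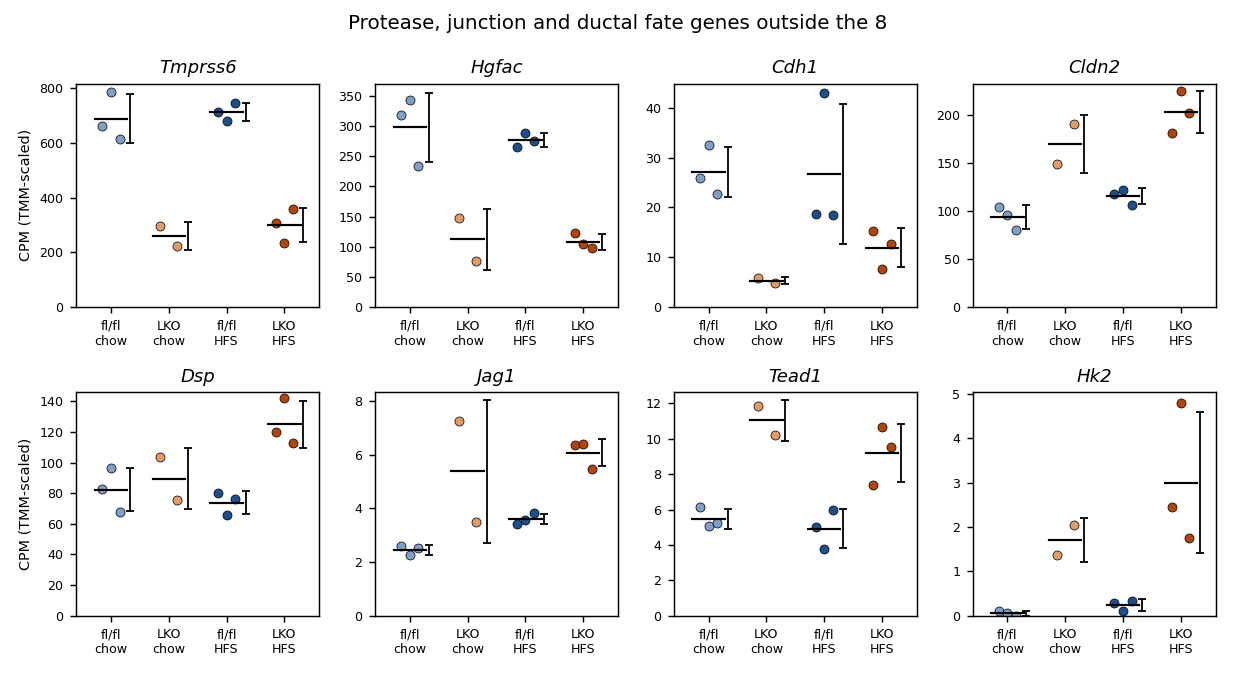
TMM-scaled CPM of 8 genes from the related lists in each of the 11 libraries (y axis from 0), by genotype and diet; points are libraries, horizontal lines group means and vertical bars 1 SD. *Tmprss6* and *Hgfac* are lower, and *Cldn2*, *Tead1* and *Hk2* higher, in every LKO library than in any fl/fl library.

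Many calls on chow were lost when 1 library was left out. Without the second chow-fed LKO library, edgeR called 69 genes in place of 632, in a fit that leaves that group with 1 library and takes its spread from the other groups. *Wfdc2*, *Sox9*, *Tmprss6*, *Hgfac*, *Cldn2*, *Cdh1*, *Hk2*, *Tead1*, *Tstd1* and *Wfdc21* then lost their chow call. Without it the differences of *Sox9* (-1.71), *Tead1* (1.11) and *Wfdc21* (-1.24) were larger than with it, and those of the other genes were smaller, such as -2.23 for *Cdh1*, -1.01 for *Hgfac* and 0.67 for *Cldn2*. *Sox9*, *Tead1* and *Wfdc21* also lost the call without the first LKO library, and *Tead1* and *Wfdc21* without each of 2 of the 3 fl/fl libraries. *Meg3* kept its chow call without any 1 library. *Jag1* kept it in 1 of 5 such fits, and without the first LKO library its difference was 0.50 (edgeR adjusted p = 0.274). On HFS diet the calls of *Tmprss6*, *Hgfac*, *Meg3* and *Hk2* held without any 1 library, while those of *Wfdc2*, *Ddr1*, *Dsp*, *Tead1*, *H19*, *Cldn2*, *Mst1*, *Wfdc21* and *Anxa13* were lost without at least 1. Calls were also lost with every library kept. In a fit of only the chow groups, *Wfdc2*, *Sox9*, *Tead1*, *Jag1*, *Cldn2*, *Hgfac*, *Tstd1* and *Wfdc21* were not called (edgeR adjusted p 0.0523 to 0.186). *Meg3*, *Hk2*, *Cdh1* and *Tmprss6* kept their chow call in that fit. The direction of all these genes was the same throughout.

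Genes whose log2 levels were most alike to each member over the 11 libraries were ranked by Pearson's r among genes of at least 1 CPM on average. For *Wfdc2* these were *Ctnnbip1* (0.96), *Dera* (0.95) and *Hes6* (0.95), and 86 genes in all had r of at least 0.9. *Ddr1* was most alike to *Ly6d* (0.96), *Slc1a4* (0.96) and *Acot9* (0.95), and *Sox9* to *Copz1* (0.95), *Sgsm1* (0.95) and *H2-Q6* (0.95). *Afp* was most alike to *Dars* (0.94), *Adss* (0.93) and *Hspa4* (0.93), and *Spp1* to *Bbs5* (0.93), with only 3 genes at 0.9 or more. Differences between the 4 groups enter these correlations. Among the 8 themselves, *St14* and *Afp* had r = 0.90 and *Sox9* and *St14* r = -0.85 over the 11 libraries, and 0.68 and -0.42 after removal of the group means.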

How the data were processed

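Hepatocyte mRNA was measured in 11 libraries, grouped by genotype and diet from the labels. The authors deposited raw counts per gene for each library, with Ensembl identifiers. The study's methods name kallisto with tximport. The submitters' processing notes name cutadapt 1.13, STAR, HTSeq 0.6.1p1 and DESeq2 on mm10. The files do not say which made the counts, and the strand setting is not given in the sources used here. A pseudo-alignment and an alignment can split reads of overlapping genes differently. The file name of 1 chow-fed *Xbp1* LKO library carries another replicate number than its title, and the title was used.

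Symbols came from GENCODE M21 and matched 54079 of 54232 identifiers. Genes passing edgeR's filterByExpr (minimum count 10) were fitted with edgeR 4.0.16 (R 4.3.3), with TMM factors from 0.878 to 1.19, in one quasi-likelihood model of the 4 groups. The Benjamini-Hochberg adjustment covered all 13303 tested genes, at a threshold of 0.05. DESeq2 1.42.0 was run as an alternative. CPM used the TMM-scaled library sizes, correlations were taken on log2 CPM (prior count 2), and values per kb used the union of exons. The fit was tested on simulated data. Depth limited low genes, where 3 counts stood for 0.112 to 0.173 CPM. Replicates differed beyond sampling noise (chi-square per degree of freedom 25.4 to 91.5), so none was merged. The labels do not say more of the replicates than 1 or 2 mice per library. The 8 genes and all lists were chosen with earlier results of these data known. Genes of the 5 related lists were named by a fixed rule. It took up to 3 per list with the lowest unadjusted p over the genotype comparisons, among those of at least 1 CPM on average. Defining duct markers, *Xbp1* and *Alb* were included, and exceptions were marked. A few results are not reported here. Sequences came from RefSeq (GRCm38.p6).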

Additional observations from a re-analysis of the deposited data

How the results depend on the processing

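The number of genes called varied with the settings. The genotype count on chow (632) was 1130 with DESeq2, 3000 with library totals (2685 higher, against 230 of 632), 1507 without the filter, 233 with only the groups compared, and 69 to 762 when libraries were left out in turn. The genotype count on HFS diet (543) was 1007 with DESeq2, 1483 with library totals (1288 higher, against 256 of 543), 1438 without the filter and 184 to 532 with a library left out. The diet count in *Xbp1* fl/fl cells (57) was 180 with DESeq2, 499 without the filter and 6 to 43 with a library left out. In *Xbp1* LKO cells (8) it was 215 with DESeq2, 722 without the filter, 0 with only the groups compared and 0 to 36 with a library left out. The interaction count (0) was 29 with DESeq2, 269 without the filter and 0 with a library left out. Without the filter, *Spp1* passed for diet in *Xbp1* LKO cells (1.86 log2 units, edgeR adjusted p = 5.32e-08) and for the interaction (1.81 log2 units, edgeR adjusted p = 0.000469). The cause was not tested.

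Replicate numbers did not pair the samples: deviations from group means correlated at -0.009 on average between same-numbered libraries (15 pairs, -0.199 to 0.231). With the number as a replicate block, the calls were 455 and 412 for genotype on chow and HFS diet, 38 and 19 for diet in *Xbp1* fl/fl and *Xbp1* LKO cells, and 0 for the interaction. The block changed no call of the 8 genes. Depth limits *St14* and the duct markers, where a few counts set the values.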

Other observations

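A pair of further duct and progenitor genes too low to be tested had counts in the HFS-fed *Xbp1* LKO libraries. *Prom1*, a surface glycoprotein of progenitor and duct cells, had 28 counts there and 1 in HFS-fed *Xbp1* fl/fl libraries, a ratio of 22.1 (95% exact interval 3.65 to 902, counting error only). *Cd24a* had 28 counts and 0, at least 7.35-fold higher against 3 counts over the group. On chow the *Cd24a* counts were 1 in *Xbp1* LKO and 6 in *Xbp1* fl/fl libraries, so the higher level was not seen there. These genes were named after their values were seen.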
